A study of Rattus norvegicus with 10 samples.

Results

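Immediate early genes are the set that cells transcribe first after a growth factor, a hormone, a depolarisation or a stress, without new protein synthesis. Here 41 of them were listed by name: the AP-1 factors and related bZIP genes, the EGR and NR4A factors, genes of RNA decay, dual-specificity phosphatases, the IER, KLF and GADD45 families, Myc, and kinases and secreted or synaptic effectors. A gene was measured where at least 1 probeset carried its symbol and no other, and the probeset with the highest mean over the 10 arrays stood for it. That gave 40 measured genes among the 14217 genes of the array, with 65 probesets in all, and left out Btg2. Of the 40, 34 lay above the signal filter of the test, and 6 (Fosl1, Fosl2, Egr3, Egr4, Myc and Maff) did not.

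The RNA came from pancreatic islets of male Wistar rats that were 7 weeks old and housed singly. One group of 5 ate standard chow, with 8% of its calories from fat, and the other group of 5 ate a cafeteria diet, with 66%, both for 10 days. Collagenase digestion, a density gradient and hand-picking gave the islets, and each of the 10 arrays held an independent sample. Groups were taken from the titles, which match the source name and description (3 fields in all), whereas 1 field, the diet characteristic, gives the opposite diet in all 10 samples. Were that field correct, the sign of every diet difference below would turn. The question addressed is what high-fat feeding for this time does to the transcripts of islets.

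All 11 islet markers were tested and had signals of at least 1455 on every array. Median signals of the arrays ran from 150.8 to 173.2, and pairs of arrays correlated across probesets with r between 0.9585 and 0.9732. Signals are MAS5 intensities in arbitrary units, comparable between arrays for one probeset but not between probesets. In whole islets, fewer cells of a type and less RNA per cell cannot be told apart. One quality measure differed between the groups: the ratio of the 3 prime to the 5 prime GAPDH control probeset, which rises when RNA is degraded or copied short, was 1.16 ± 0.103 (SD, n = 5) in the standard and 1.01 ± 0.0632 (SD, n = 5) in the cafeteria arrays. The log2 difference was −0.21 (exact two-sided permutation p = 0.0238, of which 0.00794 is the smallest possible). This threshold was missed when standard replicate 1, 3, 4 or 5 was left out (−0.17, −0.18, −0.20 and −0.21, with exact permutation p of 0.0635, 0.0635, 0.0635 and 0.0556).

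In the textbook scheme, ERK and other MAP kinases act on serum response factor and its partners at CArG boxes, and cyclic AMP and calcium act on CREB at cyclic AMP response elements (CREs). Both kinds of input reach β cells, where glucose and incretin hormones induce genes such as Fos, Egr1 and Nr4a1. The transcripts are short-lived, and many encode transcription factors that act on a second wave of genes.

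Stretches upstream of 5 members hold sequence matches to the elements these inputs act through, and binding was not measured. The 5 were chosen to cover members with a CArG box and members with a CRE or its core. RefSeq promoters of build GRCr8, running from 250 bases before to 50 after the start of transcription, were found for 31 of the 41 genes (33 promoters, since Sgk1 has several). The 10 genes without one, Fos, Jun, Atf3 and Myc among them, could not be searched. Each stretch holds the 150 bases before the start, with the CArG box and the CRE core (TGACG, on either strand) in capitals. The regions are chr1:92799109-92799258 on the minus strand for Zfp36, chr20:21054442-21054591 on the minus strand for Egr2, chr1:262543624-262543773 on the plus strand for Dusp5, chr19:40399223-40399372 on the plus strand for Ier2 and chr7:134259988-134260137 on the plus strand for Nr4a1.
Zfp36: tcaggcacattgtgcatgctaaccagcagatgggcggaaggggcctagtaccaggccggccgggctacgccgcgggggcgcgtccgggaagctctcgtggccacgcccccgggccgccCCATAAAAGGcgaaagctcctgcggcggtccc
Egr2: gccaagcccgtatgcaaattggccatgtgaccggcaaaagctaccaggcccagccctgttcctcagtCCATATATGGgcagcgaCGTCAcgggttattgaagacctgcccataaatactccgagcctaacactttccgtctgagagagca
Dusp5: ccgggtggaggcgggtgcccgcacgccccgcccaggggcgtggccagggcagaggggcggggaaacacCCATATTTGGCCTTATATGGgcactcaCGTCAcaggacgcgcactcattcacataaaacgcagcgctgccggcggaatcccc
Ier2: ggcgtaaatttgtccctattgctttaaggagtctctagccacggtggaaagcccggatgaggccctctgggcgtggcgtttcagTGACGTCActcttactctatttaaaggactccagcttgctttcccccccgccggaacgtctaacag
Nr4a1: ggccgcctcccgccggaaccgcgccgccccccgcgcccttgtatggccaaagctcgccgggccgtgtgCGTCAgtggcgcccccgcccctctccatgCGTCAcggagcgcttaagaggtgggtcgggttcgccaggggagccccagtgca

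The CArG box of Zfp36 began 32 bases before the start and that of Egr2 83 bases before it. Dusp5 held a pair of them, at 82 and 72 bases, and Egr2 and Dusp5 also held a core site. The full CRE (TGACGTCA, which contains the core site on both strands) stood 66 bases before the start of Ier2, while Nr4a1 held core sites at 82 and 53 bases. Of the 33 promoters, 5 (15.2%) had a CArG box, against 1.64% of all 33469 promoters of this length in the table. The full CRE was also in 5 (15.2% against 1.83%), the core site in 20 (60.6% against 21.2%), and the EGR site (GCGNGGGCG) in 9 (27.3% against 4.98%). The AP-1 site (TGANTCA) was in 2 (6.1% against 7.33%) and the NR4A element NBRE (AAAGGTCA) in 0 (1.43% of all). Both strands were searched, and the median G and C content of the members' promoters was 63.7%, against 51.7% for all promoters. Of the 5 genes with a CArG box, Zfp36, Egr2, Egr1 and Klf6 had log2 differences between the diets of −0.51, −0.51, −0.18 and −0.12, and Dusp5 one of 0.29 (95% confidence interval −0.081 to 0.66). The tested genes with a full CRE, Ier2, Jund and Dusp1, were at −0.37, −0.19 and −0.13. A second probeset of Dusp1 was at 0.23 (SE 0.126). Maff, which also had a full CRE but lay below the filter, was at 0.72 (SE 0.183), and Btg2 was not measured.

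On the cafeteria diet most tested members had a lower mean, and none passed the test over all probesets. Of 34 members, 24 were lower and 10 higher, against 5283 and 5017 of the 10300 genes whose brightest probeset was tested. The median log2 difference of the members was −0.16, against −0.0044 over those genes. With limma, 0 of 34 had an adjusted p under 0.05 (0.0% of the 18625 tested probesets did). At an unadjusted p under 0.05 there were 9 members (10.4% of all probesets), of which 8 were lower (4.91% of all probesets) and 1 higher (5.51% of all probesets). The lower ones were Fos, Jun, Atf3, Ier2, Ier5, Zfp36, Zfp36l1 and Dusp2, and the higher one was Dusp6. Jun and Ier5 were the 2 members whose cafeteria arrays all lay below all standard arrays (1.45% of all probesets), and 0 members had all cafeteria arrays above (0.988% of all probesets). Without standard replicate 2 the count at an unadjusted p under 0.05 was 14, all lower (4.93% of all probesets were lower at that level), and without cafeteria replicate 2 it was 6, all lower (4.48%).

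The members did not sit at one level within a diet group. Standard replicate 5 held the highest value of 12 members and standard replicate 3 that of 11, while cafeteria replicate 1 held the lowest value of 8 and standard replicate 2 that of 6. The median deviation of the 34 members from their own means was 0.29 in standard replicate 3 and 0.24 in standard replicate 5, on the log2 scale. In standard replicates 1, 2 and 4 it was 0.024, −0.16 and −0.011. The cafeteria arrays lay closer together, at −0.14, −0.13, −0.11, −0.12 and 0.046 for replicates 1 to 5.

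**Figure D1:**
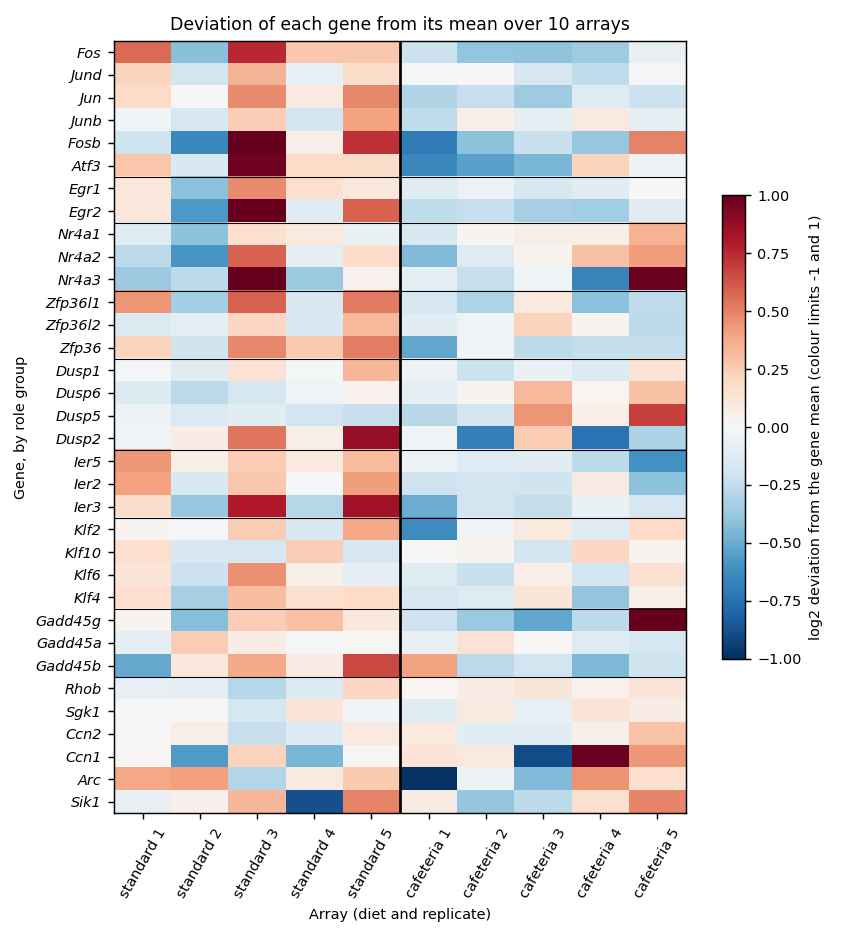
Log2 deviation of each of the 34 tested members from its mean over the 10 arrays, with arrays in columns (diet and replicate) and genes in rows by role group. Standard replicates 3 and 5 hold the highest value of 11 and 12 members, and cafeteria replicate 5 that of Gadd45g.

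Fos and Jun proteins pair through their leucine zippers to form AP-1, and Atf3 is a stress-induced relative. All 6 tested members were lower in the cafeteria group, with a median log2 difference of −0.49. In the order of replicates 1 to 5, Jun read 1901, 1662, 2309, 1759 and 2330.3 in the standard arrays and 1350.3, 1418, 1297, 1518 and 1428 in the cafeteria arrays. The lowest standard array therefore lay above the highest cafeteria array. The means were 1992 ± 311 (SD, n = 5) and 1402 ± 83.6 (SD, n = 5), a log2 difference of −0.49 (SE 0.108, 95% confidence interval −0.73 to −0.25, limma adjusted p = 0.398). The other probesets of Jun had smaller differences of −0.20 (SE 0.103) and −0.24 (SE 0.138).

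Fos, the classic inducible partner of Jun, read 5829.5, 2949.6, 6638, 4755 and 4755 in the standard arrays. Its cafeteria values were 3387, 2992, 2982, 3072 and 3737. Standard replicate 2 was the lowest of the 10 arrays, and the other 4 standard arrays lay above every cafeteria array. This gave a log2 difference of −0.58 (SE 0.186, 95% confidence interval −0.99 to −0.17, limma adjusted p = 0.412), which is 1.49-fold lower on this scale. Without standard replicate 2 it was −0.75 and without standard replicate 3 it was −0.46.

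Atf3 was close to Fos in size, with more overlap. Its signals were 307, 225, 506, 290.1 and 287 on the standard diet and 156, 168, 179, 296 and 243 on the cafeteria diet, so that cafeteria replicates 4 and 5 lay within the standard range and standard replicate 3 stood highest. The log2 difference was −0.59 (SE 0.218, limma adjusted p = 0.422).

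The other Jun and Fos genes differed less from zero for their spread. Jund, which many cells hold at a steady level, read 3639.7, 2737, 3966, 2946 and 3542 in the standard and 3074, 3122, 2780.5, 2612 and 3085 in the cafeteria arrays. These ranges overlap, and its log2 difference was −0.19 (SE 0.112). Junb was at −0.11 (SE 0.126). Fosb, an inducible Fos relative, was at −0.49 with the largest error of the group (SE 0.341) and ran from 180.0 to 721 in the standard arrays alone.

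**Figure D2:**
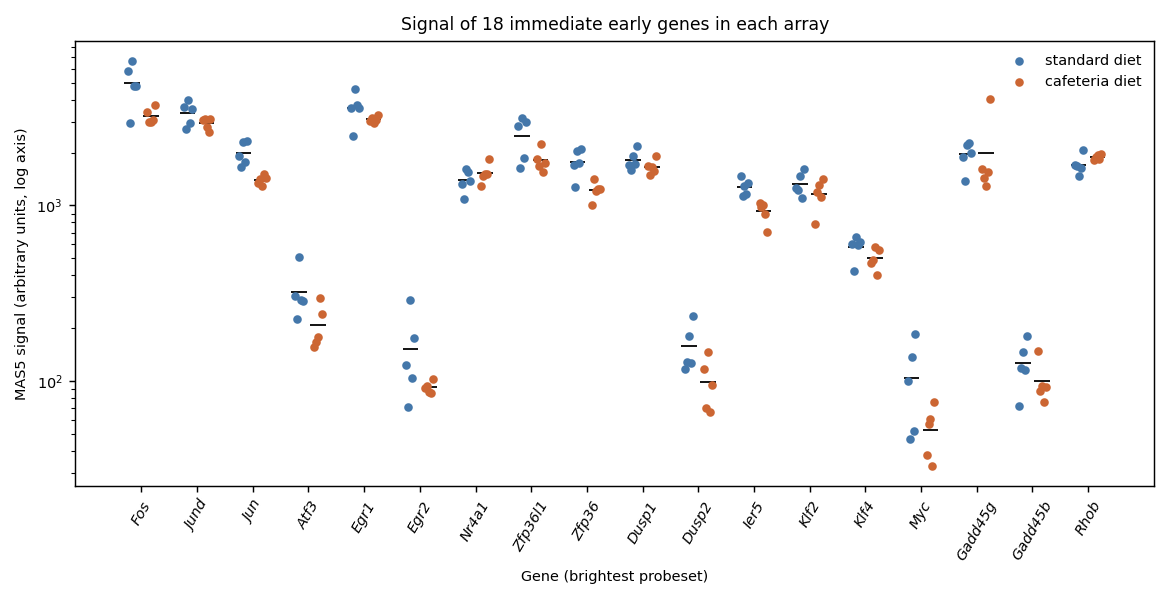
MAS5 signal (log axis) of 18 immediate early genes in the 5 standard (blue) and 5 cafeteria (orange) arrays; points are arrays and bars are group means. The Jun and Ier5 groups do not overlap, and single high arrays are visible for Egr2 (standard replicate 3) and Gadd45g (cafeteria replicate 5).

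The EGR genes encode zinc finger factors that bind GC-rich sites and are induced through serum response factor. Both tested members were lower on average. Egr1 read 3569.5, 2476, 4585, 3707 and 3576 in the standard arrays against 3024, 3159, 2956, 3059 and 3287 in the cafeteria arrays. The cafeteria values fell inside the standard range, which standard replicate 2 bounded below and standard replicate 3 above. This gave a log2 difference of −0.18 (SE 0.137, 95% confidence interval −0.48 to 0.12, limma adjusted p = 0.639).

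Egr2, a close relative of Egr1, was dim, with standard signals of 123, 71.2, 288, 104 and 177 and cafeteria signals of 92.1, 94.1, 86.5, 85.9 and 103. Standard replicate 2 lay below all cafeteria arrays, and the other 4 standard arrays lay above them. Its log2 difference of −0.51 (SE 0.273, limma adjusted p = 0.522) was −0.26 without standard replicate 3 and −0.72 without standard replicate 2.

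The NR4A genes, which encode orphan nuclear receptors induced by cyclic AMP and calcium, were not lower as a group. Nr4a1 read 1332, 1085, 1622, 1551 and 1383 in the standard and 1293, 1471, 1507, 1511 and 1847 in the cafeteria arrays. The highest array was cafeteria replicate 5 and the lowest standard replicate 2, and the groups overlapped. The log2 difference of Nr4a1 was 0.13 (SE 0.125, 95% confidence interval −0.14 to 0.41, limma adjusted p = 0.71). Nr4a2 was at 0.069 (SE 0.222) and Nr4a3 at −0.021 (SE 0.325). The interval of Nr4a3, −0.74 to 0.69, includes the differences seen for Fos and Jun, and whether NR4A and AP-1 genes differ in their response was not tested.

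Zfp36 and its relatives encode zinc finger proteins that bind AU-rich elements of short-lived transcripts, Fos among them, and speed their decay. Zfp36 itself read 1699, 1269.8, 2039, 1752 and 2086 in the standard arrays and 1011, 1420.0, 1214, 1234 and 1235 in the cafeteria arrays. Standard replicate 2 was below cafeteria replicate 2, and the other standard arrays lay above all cafeteria arrays. The means of 1769 ± 327 (SD, n = 5) and 1223 ± 145 (SD, n = 5) gave a log2 difference of −0.51 (SE 0.14, 95% confidence interval −0.82 to −0.21, limma adjusted p = 0.398).

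Zfp36l1 had a similar mean difference with a wider spread. Its values were 2831, 1642, 3139.9, 1864 and 2987 in the standard arrays and 1849, 1679.6, 2226, 1559.9 and 1740.3 in the cafeteria arrays. Standard replicates 1, 3 and 5 lay above every cafeteria array, and standard replicates 2 and 4 lay among them. The log2 difference was −0.42 (SE 0.188, limma adjusted p = 0.472), while Zfp36l2 was at −0.057 (SE 0.123).

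The dual-specificity phosphatases, which switch MAP kinases off, differed in direction among themselves, with 2 lower and 2 higher. Dusp2, found in the nucleus and in immune cells, read 118, 128, 182, 127 and 234 in the standard arrays and 118, 70.03, 147, 67.0 and 94.6 in the cafeteria arrays. Cafeteria replicates 2, 4 and 5 lay below every standard array. This gave a log2 difference of −0.60 (SE 0.226, limma adjusted p = 0.425). Dusp6, a cytoplasmic phosphatase of ERK, was at 0.23 (SE 0.102, limma adjusted p = 0.472), and Dusp5, its nuclear counterpart, at 0.29 (SE 0.169). The other tested probesets of Dusp6 had smaller differences of 0.17 (SE 0.228) and 0.029 (SE 0.19).

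Dusp1, which acts on p38 and JNK as well as ERK, read 1709, 1593, 1909, 1717 and 2181 in the standard and 1673, 1489, 1646, 1569 and 1907 in the cafeteria arrays. The groups overlapped, with a log2 difference of −0.13 (SE 0.103). Its second probeset went the other way at 0.23 (SE 0.126), and the mean of both was 0.048, so its direction depends on the probeset.

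The IER genes are named for their early induction, and all 3 were lower in the cafeteria group, by a median of −0.46. Ier5, a regulator of heat shock factor activity, read 1465, 1126, 1287, 1156 and 1347 in the standard arrays and 1039, 985, 1000.4, 898 and 706 in the cafeteria arrays. Every cafeteria array lay below every standard array. The means were 1276 ± 139 (SD, n = 5) and 926 ± 133 (SD, n = 5), with a log2 difference of −0.46 (SE 0.119, 95% confidence interval −0.72 to −0.20, limma adjusted p = 0.398). As the mean of its 3 probesets, the others dim and at −0.14 and −0.003, Ier5 was at −0.202 (limma adjusted p = 0.499). Ier2 was at −0.37 (SE 0.132, limma adjusted p = 0.422) and Ier3 at −0.46 (SE 0.236, limma adjusted p = 0.508).

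**Figure D3:**
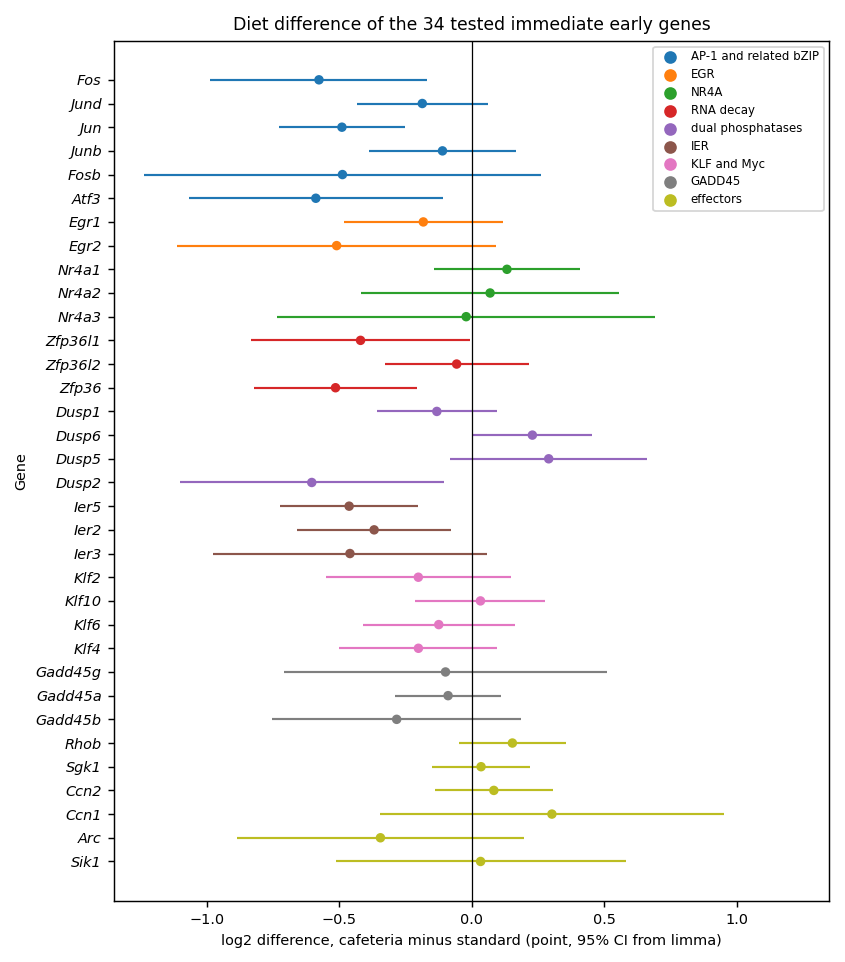
Log2 difference, cafeteria minus standard, of the 34 tested members (point) with limma's 95% confidence interval (line), coloured by role group. All tested AP-1, EGR, RNA decay, IER and GADD45 members lie left of zero, 5 of 6 effectors lie right of it (Sgk1 and Sik1 turn under median centring), and 25 of the 34 intervals include zero.

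Krüppel-like factors are zinc finger regulators of growth and differentiation. Klf2, best known as a flow-responsive gene of endothelium and a quiescence factor of T cells, read 1251, 1221, 1470.1, 1103 and 1612 in the standard arrays and 789, 1196, 1315, 1122 and 1412 in the cafeteria arrays. Cafeteria replicate 1 lay below the standard range and the other 4 cafeteria arrays lay within it. The log2 difference was −0.20 (SE 0.159), and its 4 tested probesets disagreed in direction, from −0.20 to 0.15.

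Klf4, a growth-arrest factor, read 599.8, 422, 664, 598 and 616 in the standard arrays and 473, 487, 583, 404 and 557 in the cafeteria arrays. Standard replicate 2 was well below the other standard arrays, and below all cafeteria arrays but replicate 4. This gave a log2 difference of −0.20 (SE 0.136). Klf6 was at −0.12 (SE 0.131) from its brightest probeset, and Klf10, induced by TGF-β, at 0.033 (SE 0.112), or −0.0049 under median centring.

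Gadd45 proteins respond to DNA damage and stress and activate p38 and JNK. The log2 differences were small for their errors: −0.09 for Gadd45a (SE 0.0906), −0.28 for Gadd45b (SE 0.214) and −0.099 for Gadd45g (SE 0.278). Gadd45b read 72.2, 119, 146, 117 and 181 in the standard and 149, 88.4, 94.0, 76.2 and 93.3 in the cafeteria arrays, and all cafeteria arrays lay within the standard range. Gadd45g read 1896, 1382, 2213, 2276 and 2001 in the standard arrays and 1613, 1437, 1292, 1552 and 4010.1 in the cafeteria arrays. Cafeteria replicate 5 stood above all other arrays, and without it the log2 difference of Gadd45g was −0.39. Its direction is not stable: the plain means were 1954 ± 355 (SD, n = 5) in the standard and 1981 ± 1141 (SD, n = 5) in the cafeteria arrays, and the log2 difference was 0.018 without cafeteria replicate 3 and 0.60 with the GAPDH ratio in the model.

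Among the effectors, 5 of 6 were higher, of which Sgk1 (−0.0027) and Sik1 (−0.0045) turned to the lower side when each array was centred on its median, and none had an unadjusted p under 0.05. Sik1 also turned under quantile normalization (−0.016). Rhob, which encodes a small GTPase of early response, read 1691, 1679, 1467, 1628 and 2068 in the standard arrays and 1810.5, 1882, 1949, 1846 and 1953 in the cafeteria arrays. Standard replicate 5 was the highest of all, and the other 4 standard arrays lay below every cafeteria array. The log2 difference of Rhob was 0.15 (SE 0.0922, 95% confidence interval −0.05 to 0.36, limma adjusted p = 0.557). The glucocorticoid-induced kinase gene Sgk1 was at 0.035 (SE 0.0847), the CREB-induced kinase gene Sik1 at 0.033 (SE 0.249) and the synaptic gene Arc at −0.35 (SE 0.246). The matricellular genes Ccn1 and Ccn2, targets of YAP and of serum response factor, were at 0.30 (SE 0.296) and 0.083 (SE 0.101).

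The 6 members below the filter ranked low among non-control probesets by mean log2 value, from percentile 17.9 to 33.6, and whether they exceeded background is unknown, since the table has no detection calls. Myc, the growth regulator, read 100.5, 46.8, 137, 52.0 and 185 in the standard arrays and 37.8, 57.3, 61.3, 33.0 and 76.0 in the cafeteria arrays. Standard replicates 1, 3 and 5 lay above all cafeteria arrays and standard replicates 2 and 4 among them. Without the filter, limma gave Myc a log2 difference of −0.71 (SE 0.338, adjusted p = 0.662). Maff, a small Maf protein that lacks a transactivation domain, was on the other side at 0.72 (SE 0.183, adjusted p = 0.616), with 48.0, 29.4, 26.9, 54.7 and 49.9 in the standard arrays and 75.5, 95.3, 53.6, 83.0 and 77.5 in the cafeteria arrays. For Maff cafeteria replicate 3 and standard replicate 4 kept the groups from separating. Fosl1, Fosl2, Egr3 and Egr4 were at 0.12, −0.15, 0.28 and −0.28, with group means between 27.5 and 69.7.

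Genes that act before or beside the immediate early response had smaller median differences. Of 24 tested upstream kinases and factors 15 were lower and 9 higher, with a median log2 difference of −0.038. At an unadjusted p under 0.05, 1 was higher (5.51% of all probesets), the CREB coactivator gene Crtc2 at 0.50 (SE 0.185, limma adjusted p = 0.422). At that level 1 was lower (4.91% of all probesets), the CREB relative Atf1 at −0.19 (SE 0.0688, limma adjusted p = 0.422). Next by p was the kinase gene Rps6ka3 at −0.16 (SE 0.0775). Of 24 tested other early response genes 14 were lower and 10 higher, with a median of −0.11 and 0 at an unadjusted p under 0.05 (10.4% of all probesets). They were led by Cebpb at −0.42 (SE 0.20), the EGFR inhibitor gene Errfi1 at −0.16 (SE 0.0755) and the G protein regulator gene Rgs2 at −0.28 (SE 0.136). Of 9 heat shock genes, whose products refold damaged proteins, 7 were lower and 2 higher, with a median of −0.07. Hspa4 was at −0.68 (SE 0.212, limma adjusted p = 0.407), Dnajb1 at −0.13 (SE 0.0727) and Hspd1 at 0.078 (SE 0.0694). In these 3 lists 0 genes passed limma's adjusted threshold.

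Fos followed the GAPDH control ratio more closely than any other probeset in the positive direction. Over the 10 arrays its log2 signal and the log2 ratio had Pearson's r = 0.97 (permutation p = 7e-05, adjusted over all tested probesets 0.0931) and Spearman's rank correlation = 0.87 (permutation p = 0.00233, adjusted 0.303). With the ratio as the only term in limma, Fos passed over all probesets (adjusted p = 0.0335). It was the 1 member of 34 to pass (0.183% of the 18625 probesets did), and the 1 probeset of all to pass with a positive slope (0.00537%), while 33 passed with a negative one. By permutation 0 probesets had an adjusted p under 0.05, so the call rests on limma. The same Fos probeset had r = 0.545 with the GAPDH 3 prime to middle ratio and 0.642 with the beta-actin ratio.

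The Fos values can be followed along the ratio. Standard replicates 1 and 3 had the highest ratios, 1.26 and 1.24, and the highest Fos signals, 5829.5 and 6638. Standard replicate 2, with the lowest ratio of its group (1.00), had a Fos signal of 2949.6, the lowest of the 10 arrays. In the cafeteria group, replicate 5 had the highest ratio (1.11) and the highest Fos signal, 3737. Leaving out the 2 arrays farthest from the median ratio, standard replicates 1 and 3, r was 0.95, and for deviations from the diet means over the 10 arrays it was 0.93. Each diet group holds 5 arrays, too few for a correlation of its own. Leaving out standard replicate 1, 2 or 5, and likewise cafeteria replicate 2, 3 or 4, ended the limma call (adjusted p = 0.147, 0.0587, 0.0663, 0.113, 0.0591 and 0.136), while r stayed between 0.96 and 0.98. It was lost as well with diet in the model (slope 2.74, SE 0.457, adjusted p = 0.238).

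Other members had the same sign with looser relations. Of the 34, 27 had a positive slope on the ratio and 7 a negative one, against 5295 and 5005 of the 10300 genes. A positive slope was not particular to the members. It was also seen for all 15 tested immune markers and all 9 acinar genes of the lists described below. The median r was 0.57 for the immune markers and 0.45 for the members. Of the immune markers, 8 had a positive slope at an unadjusted limma p under 0.05 (3.09% of all probesets). The other marker lists had slopes of both signs. At an unadjusted p under 0.05 there were 14 members (9.27% of all probesets), 14 positive (3.09%) and 0 negative (6.18%). With diet in the model 9 members had a positive slope at that level (3.72% of all probesets) and 0 passed (0.0%). The 14 included 5 of 6 AP-1 genes, both EGR genes, 2 of 3 RNA decay genes, 2 of 3 IER genes, Klf4, Klf6 and Gadd45g. They held none of the 3 NR4A genes, 4 phosphatases or 6 effectors, but with diet in the model Nr4a1 had a slope of 1.32 (SE 0.505, limma adjusted p = 0.48), and the median r of deviations from the diet means was 0.56 for the NR4A as for the AP-1 genes. After Fos, the members with the largest r were Jund at 0.81, Egr1 at 0.79, Klf4 at 0.77 and Jun at 0.76 (permutation p = 0.00506, 0.00349, 0.0134 and 0.013, adjusted 0.297, 0.259, 0.404 and 0.398). Their Spearman rank correlations were 0.76, 0.77, 0.78 and 0.71 (permutation p = 0.0152, 0.013, 0.0112 and 0.0265, adjusted 0.458, 0.448, 0.437 and 0.489). Without standard replicates 1 and 3 their r was 0.60, 0.73, 0.69 and 0.65, and for deviations from the diet means 0.74, 0.79, 0.72 and 0.41. None of these passed the adjusted threshold.

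**Figure D4:**
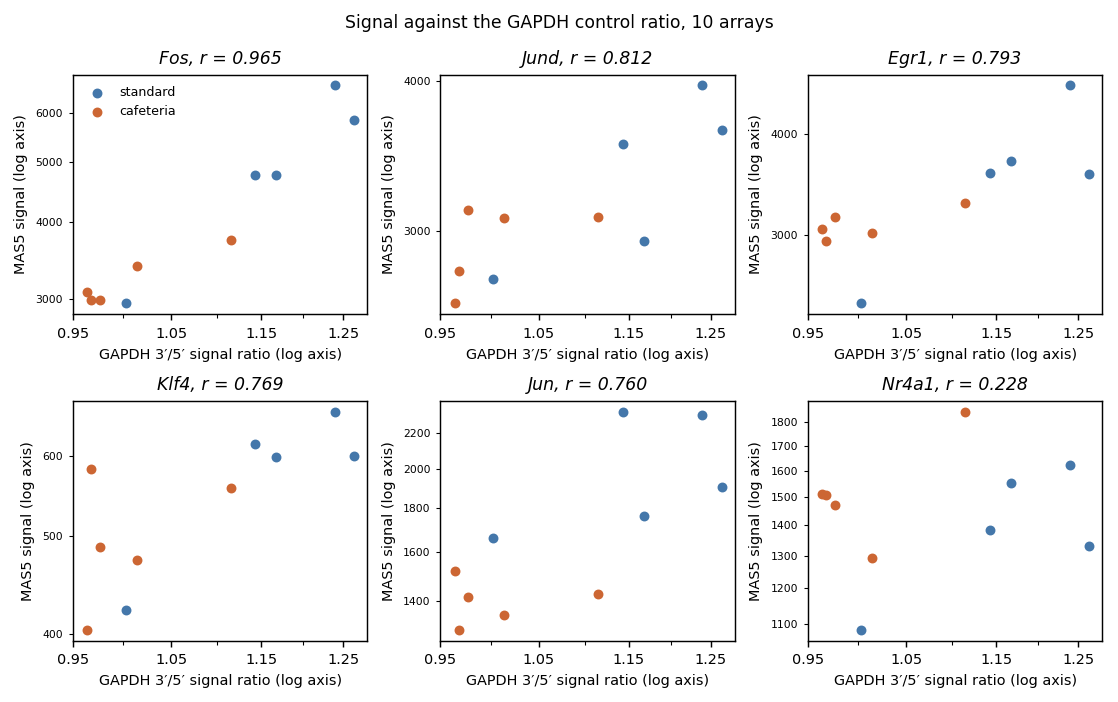
MAS5 signal of 6 members against the GAPDH 3 prime to 5 prime signal ratio, both on log axes, with the 5 standard arrays in blue and the 5 cafeteria arrays in orange. Fos rises with the ratio across both groups (r = 0.965), and Nr4a1 has r = 0.228 over all arrays and 0.72 for deviations from the diet means.

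With the ratio and the diet in one limma model, the signs of the diet difference were mixed. Of 34 members 15 were lower and 19 higher, with a median log2 difference of 0.03, and 0 had an adjusted p under 0.05 (0.0% of all probesets). Fos went from −0.58 to −0.015 (SE 0.131), and 9 members turned direction, Fosb from −0.49 to 0.21, Klf6 from −0.12 to 0.17 and Nr4a3 from −0.021 to 0.59 among them. Jun had a difference of −0.36 (SE 0.152), Ier5 one of −0.47 (SE 0.177) and Zfp36 one of −0.32 (SE 0.19), with limma adjusted p of 0.455, 0.437 and 0.575. At an unadjusted p under 0.05 there were 4 members (10.3% of all probesets), Jun, Ier5 and Gadd45a lower and Nr4a1 higher at 0.40 (SE 0.145). With the beta-actin ratio in place of the GAPDH ratio, 22 members were lower and 12 higher, with a median of −0.109. Fos was then at −0.456 (SE 0.165). Because the GAPDH ratio itself differed between the diets, the fit with it cannot tell RNA quality and diet apart. The part of RNA quality in the diet difference was not tested.

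**Figure D5:**
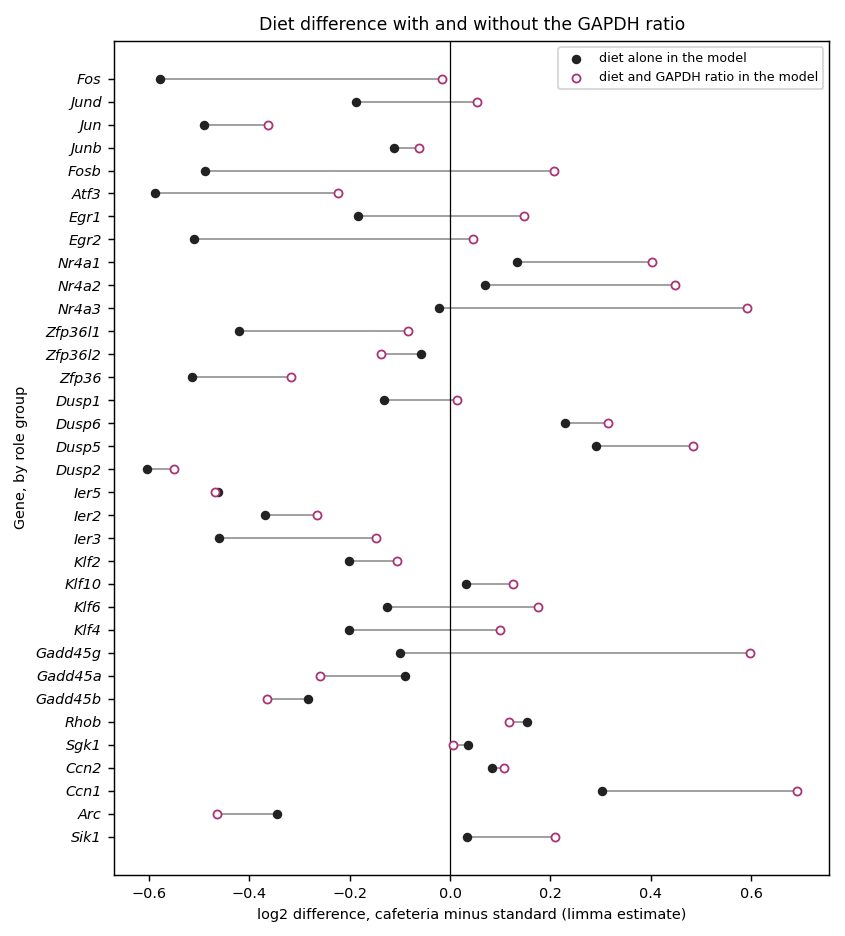
Log2 difference, cafeteria minus standard, of the 34 tested members from limma with diet alone (filled) and with diet and the log2 GAPDH ratio (open), with genes by role group. Fos moves from −0.58 to −0.015, Ier5 from −0.46 to −0.47, and the 3 NR4A genes move to the right.

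Markers of immune cells, which islets carry in small numbers, were also lower on average in the cafeteria group. All 15 tested markers of 17 were lower in the cafeteria group, by a median log2 difference of −0.70. At an unadjusted limma p under 0.05, 2 were lower (4.91% of all probesets), Itgb2 at −0.77 (SE 0.257) and Ms4a1 at −1.81 (SE 0.776). None of the immune markers passed the adjusted threshold. The mean log2 value of the list was highest in standard replicates 5, 1 and 3 (9.32, 9.09 and 8.97) and cafeteria replicate 3 (9.09). It lay between 7.51 and 8.30 in the other 6 arrays. The summed signal of the list ran from 5845 to 22406 in the standard and from 5678 to 22994 in the cafeteria arrays, and 0 markers were at 0 on any array. With the mean of these markers in the model, the members' median difference was −0.058 and 4 had an unadjusted p under 0.05 (7.58% of all probesets). These were Jun at −0.42 (SE 0.123), Ier5 at −0.38 (SE 0.134), Zfp36 at −0.38 (SE 0.147) and, higher, Dusp6 at 0.34 (SE 0.103), with limma adjusted p from 0.617 to 0.629. Fos was at −0.40 (SE 0.198), Dusp2 at −0.32, Egr2 at −0.24, Ier3 at −0.19, Zfp36l1 at −0.12 and Klf4 at −0.016. Acinar, duct, endothelial and stromal lists had median differences of −0.21, 0.14, 0.036 and 0.14. Of 9 acinar genes 7 were lower and 2 higher. At an unadjusted p under 0.05, 2 were lower (4.91% of all probesets), Cela1 at −0.78 (SE 0.267) and Amy2a3 at −1.17 (SE 0.412). The islet endocrine list had a median of 0.20, with 9 of 11 genes higher and 2 lower. Unadjusted p fell under 0.05 for 3 of the higher genes (5.51% of all probesets). It did so for 1 of the lower genes (4.91% of all probesets), Pdx1 at −0.21 (SE 0.0801). The part of these cell types, immune cells among them, in the members' differences was not tested.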

How the data were processed

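RNA from 10 islet samples was hybridised to Affymetrix rat arrays, which the series design text calls independent samples; the p-values measure the spread between these samples. The deposited table holds MAS5 signal intensity on a linear scale, per the submitters' processing notes, with a trimmed mean near 500.1 on every array and no detection calls. Of 31099 probesets, 57 were controls, 20826 had 1 symbol in the platform annotation, 436 several and 9780 none. Values were taken as log2(value + 14.15), the added number being the 10th percentile of all values, so differences of dim probesets are understated. The 18625 non-control probesets with a mean above the 40th percentile were fitted with limma 3.58.1 in R 4.3.3 (1 model over all arrays, empirical Bayes, Benjamini-Hochberg threshold 0.05), and the fit was checked on simulated data. Correlations used 100000 permutations. The control ratio used exact permutation over 252 divisions. Values in every array are given, per role group, for the member with the lowest diet p and the brightest member, and for Fos, Jun, Egr1, Atf3, Nr4a1, Zfp36, Dusp1 and Myc. Pathway genes named are the 3 of each list with the lowest p. Members and lists were chosen with earlier results of these data known. Alternatives covered the added number, filter, normalization, variance model, array weights, replicate block, covariates, choice of probeset and leaving out each array.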

Additional observations from a re-analysis of the deposited data

Results flagged for a closer look

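In sets of 5 arrays of one diet, single arrays stood far from the others for a pair of members. Klf4 was lowest in standard replicate 2, at 8.77 on the log2 scale, where the other 4 standard arrays lay between 9.26 and 9.40. Gadd45g was highest in cafeteria replicate 5, at 11.97, where the other 4 cafeteria arrays lay between 10.35 and 10.67. These were 2 of 84 sets examined, and chance flags about 1 in 20, or 4.2 sets.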

How the results depend on the processing

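No member passed the adjusted diet test (count 0) in any of the 25 alternatives. The count at an unadjusted p under 0.05 was 4 with the GAPDH ratio, 4 with the immune marker mean and 9 with the beta-actin ratio as covariate. It was 6 to 14 when single arrays were left out. The median difference of the members was 0.03, −0.058 and −0.109 with these covariates, and −0.224 to −0.101 when single arrays were left out. For the 17 tested members given in every array, 410 of the recomputed differences kept their direction and 9 reversed. With the GAPDH ratio as covariate these were Jund (0.054), Egr1 (0.148), Egr2 (0.046), Dusp1 (0.014), Klf4 (0.099) and Gadd45g (0.597), and of the other members Fosb, Klf6 and Nr4a3 turned too. Gadd45g was also at 0.034 with the beta-actin ratio and ran from −0.388 to 0.018 when single arrays were left out (0.018 without cafeteria replicate 3), and Dusp1 at 0.048 as the mean of its probesets. The causes were not tested. The count of members past the GAPDH ratio test was 0 with no filter, with diet in the model, with the beta-actin ratio, and without the 2 arrays farthest from the median ratio, an alternative added after seeing the data. It was 0 to 1 when single arrays were left out. The difference of the control ratio was −0.04 for GAPDH 3 prime to middle (exact permutation p = 0.524) and −0.089 for beta-actin (exact permutation p = 0.405), and −0.258 to −0.174 when single arrays were left out. With the replicate number as a block, 9 members had an unadjusted p under 0.05 and 0 passed; same-numbered arrays had correlations of 0.003, 0.296, 0.251, −0.002 and 0.144, and 2 of 5 standard arrays correlated best with their own number, so the numbers were not taken to pair the samples. Precision is limited by the number of arrays, and signal over background is unknown without detection calls.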

Other observations

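Of 5 members with more than 1 tested probeset, 2 (Dusp1 and Klf2) had probesets of opposite direction. Klf6, whose brightest probeset was at −0.12 (SE 0.131), had a pair of dimmer probesets at −0.31 (SE 0.107) and −0.37 (SE 0.153), with limma adjusted p of 0.415 and 0.448. The dim second probeset of Fos, below the filter, averaged 34.6 in the standard and 19.0 in the cafeteria arrays and correlated with the GAPDH ratio at r = 0.539, against 0.965 for the bright one. Members with the full CRE in their promoter were Btg2, Dusp1, Ier2, Jund and Maff.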
